A study of Drosophila melanogaster with 6 samples.

Results

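The CYP4 clan is one of the branches of the cytochrome P450 superfamily, and its transcripts were followed in heads of male Drosophila melanogaster fed the herbicide paraquat (PQ). The members were taken by gene symbol, as the Cyp4 family genes together with the Cyp311a, Cyp312a, Cyp313a, Cyp316a and Cyp318a genes, and Cyp49a1, a mitochondrial P450, was left out. This gave 31 of the 14604 genes in the RNAseq table, 22 of the CYP4 family and 9 of the other families. PQ-fed flies drank a 2.5% sucrose solution that held PQ at 5 mM over 12 h of feeding, and sucrose-fed flies drank the solution without PQ over the same time. Both groups were wild type (WT) Canton S males aged 3 to 5 days, with 30 males per group for RNA extraction, and each feeding is represented by 3 libraries described as independent biological replicates. Each library therefore pools the brain, eyes, fat body, muscle and cuticle-forming cells of many heads.

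Cytochrome P450 enzymes are heme proteins of the endoplasmic reticulum or the mitochondria that insert an oxygen atom into their substrate with electrons supplied by a reductase partner. Enzymes of the CYP4 clan are best known for oxidising fatty acids, usually at the end of the chain, and in insects members of the clan also make cuticular hydrocarbons, act on hormones and pheromones, and break down insecticides. PQ itself takes electrons from flavin reductases such as cytochrome P450 reductase and passes them to oxygen as superoxide, so a P450 gene family is of interest in PQ-fed flies from both sides, as enzymes and as users of the same reductase.

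Values are RPKM, read numbers scaled to gene length and to the mapped reads of the library, as deposited by the authors, so levels can be compared between genes per length. No value in the table is below 1 RPKM, and 1 was read as a floor under which the level is unknown. Between 34.8% and 35.5% of genes stood at it in each PQ or sucrose library. Fold changes were fitted with limma on log2(RPKM + 0.5) over the 9853 genes above the floor in at least 1 library, a scale on which weakly expressed genes show less than their true change. Of all 9853 genes, 8 passed an adjusted p of 0.05, all of them higher in PQ heads, while 5 did so without PQ replicate 1 and 0 without any single one of the other 5 libraries. Photoreceptor markers summed to between 17519 and 18964 RPKM in PQ libraries and between 18164 and 19877 RPKM in sucrose libraries, and the 8 neuronal markers were all above the floor. The 8 markers of testis and accessory gland were at the floor in all 6 libraries.

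Most of the clan was transcribed in the male head, over a range of more than 2 orders of magnitude. Of the 31 members, 22 were above 1 RPKM in all 6 libraries, 4 were at the floor in some libraries, and 5 (Cyp4ad1, Cyp316a1, Cyp313a2, Cyp313a3 and Cyp313a5) stayed at the floor in every library and could not be tested. The mean over all libraries was at least 10 RPKM for 16 members, from 2 to 10 RPKM for 6, and under 2 RPKM for the other 4 that were tested. The order of mean levels was Cyp313a1, Cyp4d21, Cyp4p1, Cyp4e2, Cyp4d2, Cyp4g15, Cyp4d20, Cyp4ac1, Cyp4aa1, Cyp4e3, Cyp4d14, Cyp311a1, Cyp4ac3, Cyp4e1, Cyp4ae1, Cyp4d8, Cyp4p3, Cyp4c3, Cyp4ac2, Cyp4g1, Cyp4p2, Cyp318a1, Cyp4s3, Cyp4d1, Cyp313a4 and Cyp312a1. Neighbours in this order were rarely separated. Only 4 of the 25 neighbouring pairs had ranges over the 6 libraries that did not overlap, namely Cyp313a1 over Cyp4d21, Cyp4d21 over Cyp4p1, Cyp4d2 over Cyp4g15, and Cyp4p2 over Cyp318a1.

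**Figure D1:**
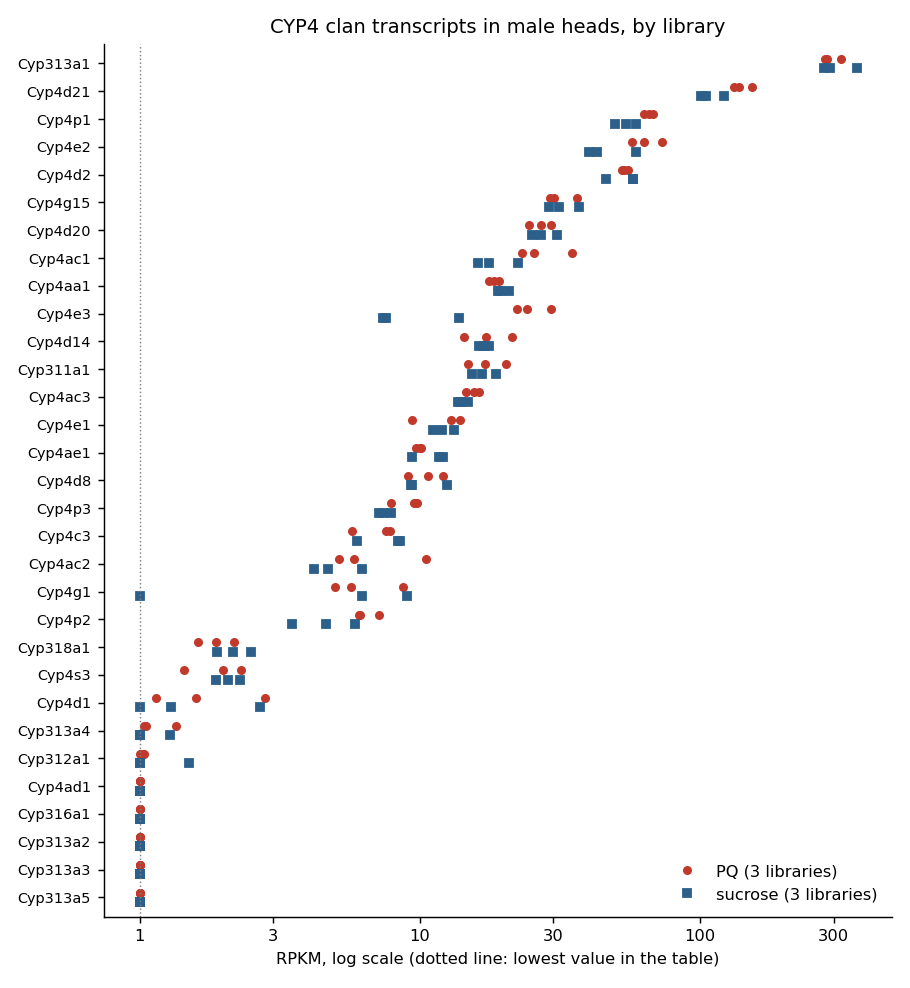
RPKM of the 31 CYP4 clan genes (rows, ordered by mean level) on a log axis, with a red circle for each of the 3 PQ libraries and a blue square for each of the 3 sucrose libraries. Cyp313a1 stands alone at the top, the 5 genes in the bottom rows lie on the dotted line at 1 RPKM in every library, and Cyp4e3 is the row in which the circles and squares lie farthest apart.

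The most abundant member by far was Cyp313a1, from the smaller CYP313 family. The gene (chr3R:10346793-10348696, plus strand, dm3) ranked 271 among the 14604 genes by mean level. Its values were 284, 279 and 317.8 RPKM in the PQ libraries, against 363, 290.3 and 278 RPKM in the sucrose libraries. The groups overlapped and the highest single value belonged to sucrose replicate 1. Its log2 fold change in limma was -0.07 with a 95% interval of -0.35 to 0.21. The gene lies inside Pde6 on the opposite strand and shares no exon bases with it in the release 6 annotation. Pde6 averaged 41.4 ± 1.63 RPKM in PQ heads and 42.3 ± 1.79 RPKM in sucrose heads (SD, n = 3 each), far below Cyp313a1, and whether the libraries kept strand is not given in the sources used here.

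The summed RPKM of the clan was 868, 855 and 922 in the PQ libraries, against 919, 767 and 741 in the sucrose libraries. These sums overlapped, with sucrose replicate 1 at the level of the PQ libraries (two-sided exact permutation test, p = 0.3, where 0.1 is the smallest value that 3 against 3 libraries can give). Without Cyp313a1 the sums were 584, 576 and 604 RPKM in the PQ libraries and 556, 476 and 463 RPKM in the sucrose libraries, and here all PQ libraries lay above all sucrose libraries. Cyp313a1 made up 32.7%, 32.6% and 34.5% of the clan's sum in the PQ libraries, against 39.5%, 37.9% and 37.5% in the sucrose libraries. The comparison without Cyp313a1 was made after its values were seen and carries no test.

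No CYP4 clan gene passed the test between PQ and sucrose feeding across all genes. With limma and Benjamini-Hochberg adjustment, 0 of the 26 tested members had an adjusted p under 0.05, against 0.0812% of all tested genes. At an unadjusted p under 0.05, 7 members were higher in PQ heads and 0 were lower, where 2.21% of all tested genes were higher and 1.67% were lower. In 6 members every PQ library lay above every sucrose library, a pattern seen in 3.11% of all tested genes, and in 0 members every PQ library lay below, against 4.47% of all tested genes. The count of 7 fell to 3 when either sucrose replicate 2 or sucrose replicate 3 was left out, to 4 when PQ replicate 3 was left out, and to 4 when the genes that never exceeded the floor were kept in the fit.

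Fold changes within the clan were mixed. The median log2 fold change over the 26 tested members was 0.04, beside -0.02 for all tested genes. There were 16 members positive and 10 negative, where 42.2% of all tested genes were positive. For 17 members the log2 fold change was within 0.2 of 0, and for 19 the 95% interval held 0. Standard errors ran from 0.07 for Cyp4aa1 to 0.66 for Cyp4g1. In heads measured in bulk, fewer cells of a type and less RNA per cell cannot be told apart, and this holds for every difference given here.

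**Figure D2:**
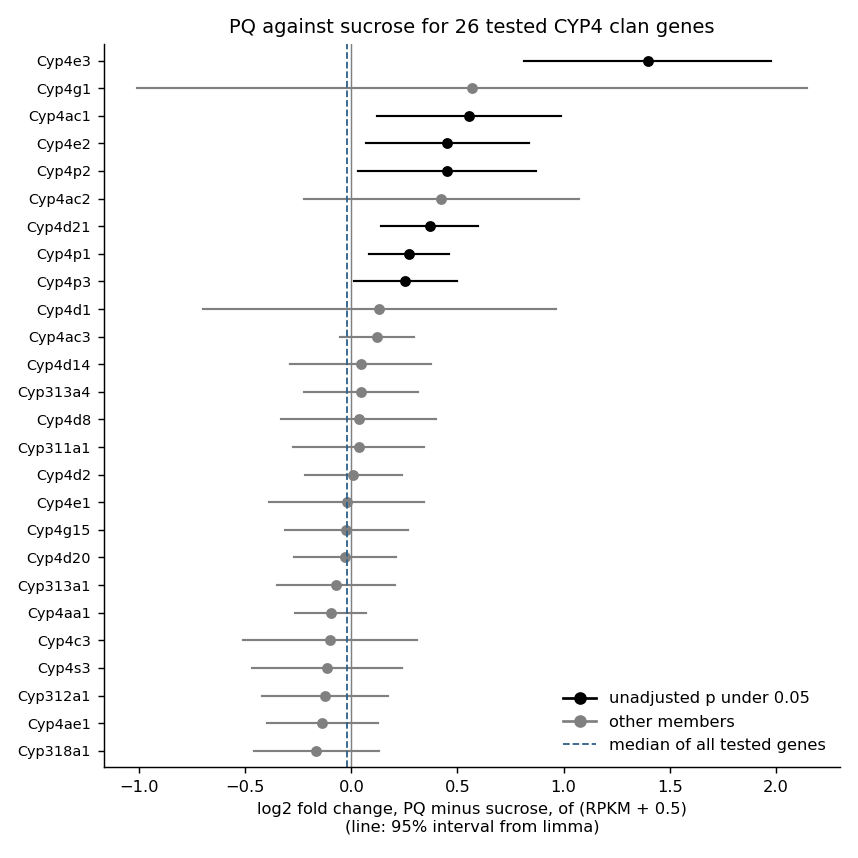
log2 fold change (PQ minus sucrose) of RPKM + 0.5 for the 26 tested CYP4 clan genes, with 95% intervals from limma, the 7 with an unadjusted p under 0.05 in black and the others in grey. The dashed line marks the median of all tested genes at -0.02, Cyp4e3 lies at 1.40 apart from the rest, and the widest interval belongs to Cyp4g1.

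Cyp4e3 had the largest log2 fold change of the clan. The gene (chr2L:9747839-9750071, minus strand, dm3) encodes a P450 known in Drosophila for permethrin tolerance through its expression in Malpighian tubules. It had 24.1, 29.3 and 22.2 RPKM in the PQ libraries, against 13.8, 7.37 and 7.6 RPKM in the sucrose libraries. The lowest PQ library was 1.6 times the highest sucrose library, so the groups were well apart, and within the sucrose group replicate 1 stood above the other two. The means were 25.2 ± 3.71 RPKM in PQ heads and 9.60 ± 3.66 RPKM in sucrose heads (SD, n = 3 each), a ratio of 2.63. On the log2(RPKM + 0.5) scale the difference was 1.40 (SE 0.24, 95% interval 0.81 to 1.98). Its unadjusted p was 0.00086 and its adjusted p was 0.303 from limma, so it did not pass the threshold over all genes. Without sucrose replicate 1 the log2 fold change was 1.68 and the adjusted p from limma was 0.084, and over all 16 alternatives the adjusted p ran from 0.079 to 1. Markers of the tubules were low in these heads, where 4 of the 6 found in the table had no value over 1 RPKM. The list, floor values included, summed to between 18.7 and 22.5 RPKM in PQ libraries and between 15.7 and 21.2 RPKM in sucrose libraries. The markers above the floor were Irk3, with a log2 fold change of -0.05 (SE 0.09), and NtR, with 0.79 (SE 0.47). NtR was highest among sucrose libraries in replicate 1, as Cyp4e3 was. The part of such cells in the Cyp4e3 difference was not tested.

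Cyp4d21, also called sex-specific enzyme 1, is a male-enriched gene of the head fat body linked to courtship, and it was the clan's second most abundant transcript. The gene (chr2L:7605600-7607703, plus strand, dm3) had 132, 138 and 154 RPKM in the PQ libraries, against 122, 105 and 101 RPKM in the sucrose libraries. All PQ libraries lay above all sucrose libraries, with PQ replicate 1 and sucrose replicate 1 closest to each other. The means were 141 ± 11.3 RPKM in PQ heads and 109 ± 11.4 RPKM in sucrose heads (SD, n = 3 each). Its log2 fold change was 0.37 (SE 0.10), with an adjusted p of 0.951 from limma. The 8 fat body markers summed to between 1275 and 1717 RPKM in PQ libraries and between 1082 and 2096 RPKM in sucrose libraries. Within the sucrose group the sum was highest in replicate 1, where Cyp4d21 was also highest. Within the PQ group the sum was again highest in replicate 1, but Cyp4d21 was lowest there. Of the 7 fat body markers tested, 0 had an unadjusted p under 0.05 in the limma fit, and the part of the fat body in this difference was not tested.

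The 3 genes of the Cyp4p cluster all had positive fold changes. They lie head to tail on chromosome arm 2R in the order Cyp4p2, Cyp4p1 and Cyp4p3 (chr2R:5125035-5131915, plus strand, dm3), with gaps of 209 and 203 bp. Cyp4p1, the most abundant of them, had 63.3, 66.0 and 68.0 RPKM in the PQ libraries, against 59.4, 54.6 and 49.7 RPKM in the sucrose libraries, a log2 fold change of 0.27 (SE 0.08). Cyp4p2 had 6.05, 7.16 and 6.10 RPKM in the PQ libraries, against 5.85, 4.63 and 3.49 RPKM in the sucrose libraries, a log2 fold change of 0.45 (SE 0.18). In both genes the groups were separate, by 1.07 times for Cyp4p1 and by 1.03 times for Cyp4p2 between the lowest PQ and the highest sucrose library. Cyp4p3 had 7.91, 9.74 and 9.55 RPKM in the PQ libraries, against 7.89, 7.40 and 7.17 RPKM in the sucrose libraries, a log2 fold change of 0.26 (SE 0.10). Its separation was thin, since PQ replicate 1 and sucrose replicate 1 differed by only 1.002 times. The adjusted p was 0.951 for all 3 genes (limma with Benjamini-Hochberg adjustment).

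All 3 Cyp4p genes sit inside hig, a gene on the opposite strand, and share no exon bases with it in release 6. The host averaged 181 ± 5.46 RPKM in PQ heads and 184 ± 8.14 RPKM in sucrose heads (SD, n = 3 each) with a log2 fold change of -0.03 (SE 0.06). Because the Cyp4p genes are related copies, reads that map to more than 1 of them could have been shared among them, and how such reads were assigned is not given in the sources used here. The same limit applies to the Cyp4ac and Cyp4e genes.

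**Figure D3:**
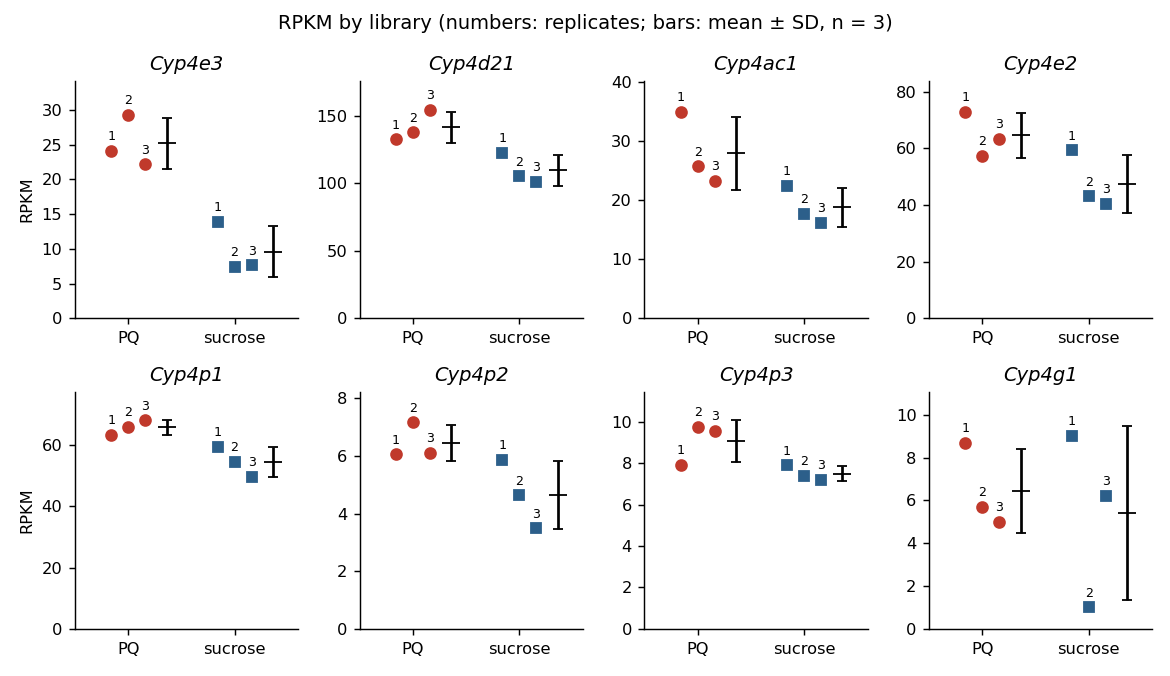
RPKM in each library for the 7 members with an unadjusted p under 0.05 and for Cyp4g1, with PQ (red circles) left of sucrose (blue squares), replicate numbers above the points, and bars for mean ± SD (n = 3). Sucrose replicate 1 is the highest sucrose library in all 8 panels, and in the Cyp4g1 panel sucrose replicate 2 lies alone at 1 RPKM.

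Cyp4ac1 and Cyp4e2, the remaining members with an unadjusted p under 0.05, also have clan genes as direct neighbours. Cyp4ac1 (chr2L:5264001-5265899, plus strand, dm3) had 34.8, 25.7 and 23.2 RPKM in the PQ libraries, against 22.4, 17.7 and 16.1 RPKM in the sucrose libraries. The lowest PQ library, replicate 3, was just above sucrose replicate 1, and PQ replicate 1 stood above the other PQ libraries. For Cyp4ac1 the log2 fold change was 0.55 (SE 0.18), with an adjusted p of 0.951 from limma. Cyp4e2 (chr2R:4332217-4334676, plus strand, dm3) had 73.0, 57.4 and 63.4 RPKM in the PQ libraries, against 59.3, 43.0 and 40.3 RPKM in the sucrose libraries. Here the groups overlapped, because PQ replicate 2 was below sucrose replicate 1. For Cyp4e2 the log2 fold change was 0.45 (SE 0.16), again with an adjusted p of 0.951 from limma.

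The fold changes of the genes next to Cyp4ac1 and Cyp4e2 were smaller. In the Cyp4ac cluster, which lies inside tkv on the opposite strand, Cyp4ac2 is 492 bp from Cyp4ac1 and Cyp4ac3 is 61 bp from Cyp4ac2. The log2 fold change was 0.42 (SE 0.27) for Cyp4ac2 and 0.12 (SE 0.07) for Cyp4ac3, and the groups overlapped for both. The host tkv averaged 24.6 ± 0.45 RPKM in PQ heads and 24.2 ± 1.47 RPKM in sucrose heads (SD, n = 3 each), a log2 fold change of 0.03, and shares no exon bases with the cluster in release 6. In the Cyp4e pair on 2R, Cyp4e1 lies 297 bp from Cyp4e2 and had a log2 fold change of -0.02 (SE 0.15), with 12.1 ± 2.36 RPKM in PQ heads and 12.1 ± 1.05 RPKM in sucrose heads (SD, n = 3 each). Cyp4ad1, on the other side of Cyp4e2 and on the opposite strand, was at the floor in all 6 libraries. Differences between neighbouring genes were not tested against each other.

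**Figure D4:**
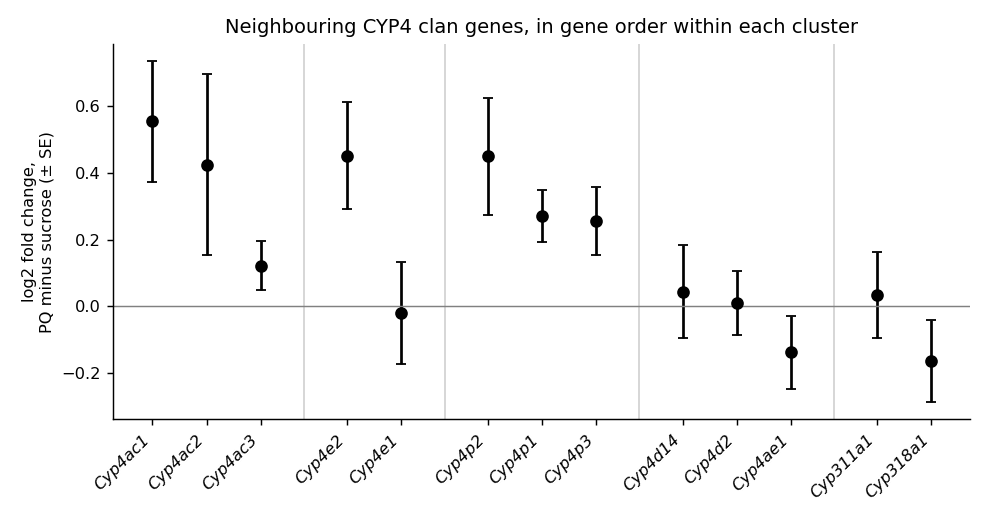
log2 fold change (PQ minus sucrose, ± SE from limma) of CYP4 clan genes that are direct neighbours in the genome, in gene order within each cluster and with grey lines between clusters. The 3 Cyp4p genes lie between 0.26 and 0.45, the Cyp4ac genes between 0.12 and 0.55, and the X-linked neighbours Cyp4d14, Cyp4d2 and Cyp4ae1 between -0.14 and 0.04.

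By position, the 7 members with an unadjusted p under 0.05 were all on chromosome 2. They were 3 of the 5 tested members on 2L, where 3.00% of all tested genes of that arm met the same criterion in the same direction, and 4 of the 6 on 2R, where 2.06% did. Of the 9 members on X, 0 met it, and the same count held for the 3 tested members on 3L and the 3 on 3R. Among the 7, the 3 Cyp4p genes lie in the same cluster, so their positions are not independent of each other. Cyp4ac1 and Cyp4e2 each lie in another cluster, of which no other member is among the 7.

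Cyp4g1 and Cyp4g15, the pair of CYP4G genes, had groups that overlapped. Cyp4g1 encodes the oenocyte enzyme that makes cuticular hydrocarbons from aldehydes. The gene (chrX:361090-363366, minus strand, dm3) had 8.68, 5.70 and 4.98 RPKM in the PQ libraries, against 9.0, 1 and 6.21 RPKM in the sucrose libraries. Sucrose replicate 2 was at the floor, so its level there is only known to be 1 RPKM or less, while the other 2 sucrose libraries were above both PQ replicate 2 and PQ replicate 3. In limma the log2 fold change was 0.57 (SE 0.66, 95% interval -1.01 to 2.15, adjusted p = 0.951 from limma). Leaving out sucrose replicate 2 gave -0.23, and leaving out sucrose replicate 1 gave 1.10, so a single library set the sign of this difference.

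The drop of Cyp4g1 to the floor in 1 library was uncommon in the table. Of 14604 genes, 2 were at the floor in exactly 1 library and at 4 RPKM or more in the other 5, Cyp4g1 and Roc1b, a criterion chosen after the values were seen. Cyp4g1 is a single-exon coding gene inside CG32816 on the same strand, with no shared exon bases in release 6. CG32816 had 6.01, 8.77 and 9.60 RPKM in the PQ libraries, against 7.45, 6.66 and 7.88 RPKM in the sucrose libraries. Sucrose replicate 2 was the lowest sucrose library for CG32816 too, but above PQ replicate 1. Oenocyte markers summed to between 882 and 992 RPKM in PQ libraries and between 823 and 1008 RPKM in sucrose libraries, mostly from desat1, which other head cells also express. FASN2, an oenocyte fatty acid synthase, was at the floor in all 6 libraries. In sucrose replicate 2 the sum was 883 RPKM, between those of the other sucrose libraries, as were desat1 and Cpr. The listed markers FarO and spidey were highest of the sucrose group there, at 5.50 and 120 RPKM. The part of oenocytes in the Cyp4g1 values was not tested.

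Cyp4g15, known for its expression in the nervous system, was several times more abundant than Cyp4g1. The gene (chrX:11371114-11377138, plus strand, dm3) had 29.3, 30.2 and 36.3 RPKM in the PQ libraries, against 37.0, 28.9 and 31.5 RPKM in the sucrose libraries. The groups covered nearly the same range. Its log2 fold change was -0.02 with a 95% interval of -0.31 to 0.26, and its sign changed when PQ replicate 1, PQ replicate 2 or sucrose replicate 1 was left out (0.04, 0.01 and 0.07 in that order). Glial markers summed to between 756 and 955 RPKM in PQ libraries and between 824 and 884 RPKM in sucrose libraries.

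Cyp4d2 had 52.5, 53.7 and 55.6 RPKM in the PQ libraries, against 57.6, 57.5 and 46.3 RPKM in the sucrose libraries. The PQ libraries lay within the range of the sucrose libraries, and the log2 fold change was 0.01 with a 95% interval of -0.22 to 0.24. Of the 15 remaining tested members, 7 had a positive and 8 a negative log2 fold change, from -0.17 for Cyp318a1 to 0.42 for Cyp4ac2, and all had groups that overlapped. Their mean levels ran from 1.09 RPKM for Cyp312a1 to 27.3 RPKM for Cyp4d20. Cyp4ae1 had the largest negative log2 fold change among those with a mean of at least 10 RPKM, at -0.14 (SE 0.11). The weakly expressed members Cyp312a1, Cyp313a4 and Cyp4d1 stood at the floor in some libraries, so their fold changes were not fully measured.

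Sucrose replicate 1 was the highest of the 3 sucrose libraries for all 7 members with an unadjusted p under 0.05 and for 18 of all 26 tested members, whereas it was the highest for 2952 of all 9853 tested genes. PQ replicate 1 was the highest PQ library for 2 of the 7 and for 6 of the 26, and for 3336 of the 9853. The summed RPKM of the CYP3, mitochondrial and CYP2 clans was also highest in replicate 1 within the sucrose group. The same held for the fat body, oenocyte, hemocyte and tubule marker sums. Within the PQ group, the sums of those clans and of hemocyte and tubule markers were lowest in replicate 1. The fat body and oenocyte marker sums were highest there. The part of tissue content in these sums was not tested. With sucrose replicate 1 and PQ replicate 1 both left out, an alternative chosen after seeing the data, 0 members passed the adjusted test and the median log2 fold change of the clan was 0.16. Cyp4e3, Cyp4d21 and Cyp4p1 had an unadjusted p under 0.05 in all 16 alternatives, Cyp4ac1 in 14, Cyp4e2 in 11, and Cyp4p2 and Cyp4p3 in 10 each.

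**Figure D5:**
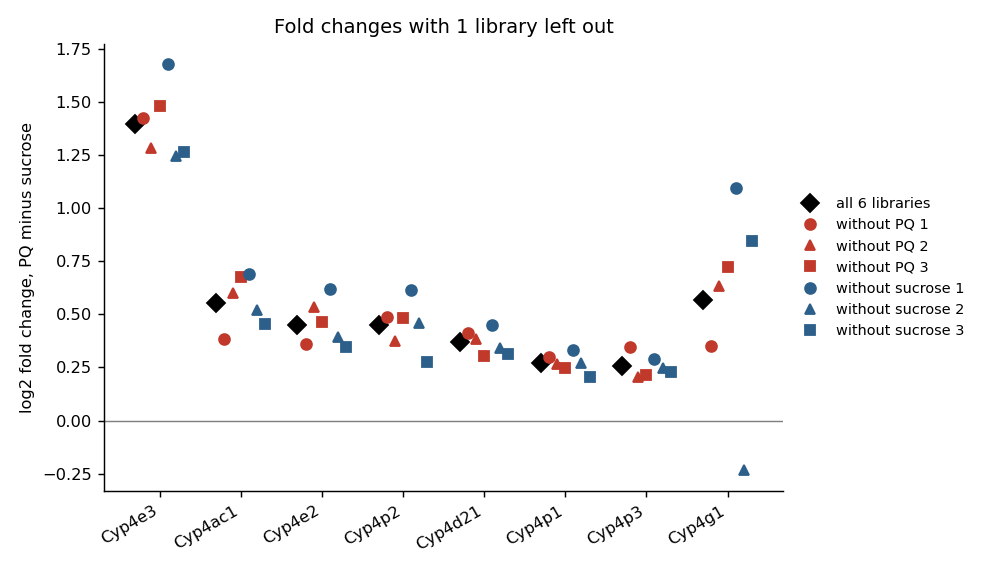
log2 fold change (PQ minus sucrose) of the 7 members with an unadjusted p under 0.05 and of Cyp4g1, with all 6 libraries (black diamonds) and with each PQ library (red) or sucrose library (blue) left out. The 7 members stay above 0 in every case, between 0.20 and 1.68, whereas Cyp4g1 runs from -0.23 to 1.10.

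Genes listed for P450 redox reactions and for heme handling in general showed no difference past the test. The list held Cpr, Cyt-b5, Cyt-b5-r, Cchl, Alas, FeCH and Ho, which do not all supply P450 enzymes with electrons or heme. Of these 7 genes, 0 had an adjusted or an unadjusted p under 0.05 in limma, and their median log2 fold change was -0.01. Cpr, the single cytochrome P450 reductase that the microsomal CYP4 enzymes use, had 95.2, 94.7 and 98.3 RPKM in the PQ libraries, against 99.5, 90.0 and 81.1 RPKM in the sucrose libraries. The groups overlapped, with a log2 fold change of 0.09 (95% interval -0.10 to 0.29). Cyt-b5, a second electron donor, had a log2 fold change of 0.12 (95% interval -0.12 to 0.35). Cyt-b5-r, a cytochrome b5-related gene, had a log2 fold change of 0.20 (95% interval -0.21 to 0.60).

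Genes of cuticular hydrocarbon synthesis, the pathway that ends at Cyp4g1, gave a similar count. Of 18 listed genes in the table, 12 could be tested and 6 were at the floor in all libraries, among them FASN2 and the female-specific desaturase Fad2. In limma 0 of the 12 had an adjusted or an unadjusted p under 0.05, with a median log2 fold change of -0.01. In 1 of them, Hacd1, named after its values were seen, every PQ library lay below every sucrose library, as in 4.47% of all tested genes, at 45.8 ± 1.53 RPKM in PQ heads and 50.8 ± 3.53 RPKM in sucrose heads (SD, n = 3 each). The delta-9 desaturase desat1 was the most abundant, with 784, 674 and 727 RPKM in the PQ libraries, against 798, 666 and 625 RPKM in the sucrose libraries. The groups overlapped, and replicate 1 was the highest library of both.

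The encoded proteins were of similar size. In the release 6 annotation all 31 members were found, with proteins of 483 residues (Cyp311a1) to 574 residues (Cyp4g15) and from 1 coding exon (Cyp4g1) to 9 (Cyp4ad1). Of the 31, 12 overlapped another gene of the table in dm3. Most of these lie wholly inside the other gene, but Cyp4e1 shares 82 exon bases with LvpH and Cyp4s3 shares 461 with rab3-GEF, so the levels of these members may include reads of the neighbour. Shared exon bases were not determined for Cyp4d20 with CG33232 or for Cyp4aa1 with Strn-Mlck.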

How the data were processed

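Male heads of PQ-fed and sucrose-fed flies were profiled by RNAseq, 3 libraries per group, with groups taken from the sample titles. Reads were 50-bp pairs, mapped by the authors with TopHat2 2.0 to the dm3 genome (submitters' processing notes), and RPKM per gene and library were deposited. The study's methods name trimmed means of M-values for quantification. The quantifying program, strand handling and treatment of reads with several matches are not given in the sources used here. The table holds no counts per gene, so the reads behind each value and their counting error are unknown, and precision is that between replicates. Read totals per library, which the study lists, were not used here. The methods name 4 replicates per feeding, of which 3 are analysed here. All 6 columns of values were matched to samples.

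The authors also deposited their own comparison (fold change and z test p-value of a gene list), which was not used. The paper, whose methods name 4 replicates per feeding, lists the clan members Cyp4e3 and Cyp4g1 among its genes up with PQ, under oxidation-reduction. With the 3 libraries per group used here, neither had an adjusted p under 0.05. The sign for Cyp4g1 changed when sucrose replicate 2 was left out. In place of the z test, limma 3.58.1 in R 4.3.3, which estimates the spread between replicates, was fitted to log2(RPKM + 0.5), with a mean-variance trend in eBayes, two-sided tests and Benjamini-Hochberg adjustment over 9853 genes. The 4751 genes at 1 RPKM in all libraries were left out. Adjusted p-values printed with the clan come from this fit. The procedure was tested on simulated data.

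The members and gene lists were chosen with earlier results of these data known. Values per library are given for members with an unadjusted p under 0.05 or separate groups, the 5 most abundant members, and Cyp4e3, Cyp4g1, Cyp4g15 and Cyp4d21. Of 103 entries in the gene and marker lists, 3 were not found. Alternatives were a pseudocount of 0.1 or 1, a filter of a mean of at least 5 RPKM or none, scaling by trimmed means of M-values or quantiles, eBayes without a trend, the replicate number as a block, and each library left out in turn. Fits without both libraries numbered 1, or on genes over 1 RPKM in 3 or more libraries, were chosen after seeing the data. Coordinates are those of the deposited table (dm3). Exon overlap, coding exons and protein lengths come from the release 6 annotation, whose coordinates were not used. Planned sequence searches were not run. Python 3.11.15 was used with pandas 2.3.3, SciPy 1.17.1 for the permutation test and matplotlib 3.10.9 for figures.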

Additional observations from a re-analysis of the deposited data

How the results depend on the processing

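The count of 0 CYP4 clan members past the adjusted threshold held under all 16 alternatives, and the 7 members with an unadjusted p under 0.05 kept a positive fold change in each. That count of 7 was 4 with no filter and 3 to 7 with 1 library left out. The count of members lower at an unadjusted p under 0.05 was 1 instead of 0 without both libraries numbered 1 and 0 to 1 with 1 library left out, and the gene was Cyp4ae1. The clan's median log2 fold change was 0.16 without both libraries numbered 1 and -0.01 to 0.09 with 1 library left out. The sign changed for Cyp4g15 and Cyp313a1 without both libraries numbered 1 (0.13 and 0.068), and with 1 library left out the ranges were -0.12 to 0.074 for Cyp4g15, -0.15 to 0.045 for Cyp313a1, -0.095 to 0.062 for Cyp4d2 and -0.23 to 1.10 for Cyp4g1. Over all genes, the count higher in PQ heads was 8, but 0 with no filter, without a trend, with quantile normalization and without both libraries numbered 1, 5 with a pseudocount of 0.1, and 0 to 5 with 1 library left out. The count lower was 0, but 1 with no filter. The causes of these changes were not tested. With the replicate block 4 genes were higher. In the clan Cyp4ac2 then had an unadjusted p of 0.019 and Cyp4p3 one of 0.076 from limma, so the 7 were not the same genes. The adjusted p of Cyp4ac1 was 0.242 with the block. Same-numbered libraries deviated together with r = 0.41, 0.06 and 0.05 for numbers 1, 2 and 3, across genes. Libraries of unlike number had r from -0.36 to 0.34. Only number 1 stood above that range, and the numbers were not taken as pairs. The number of reads behind each value is unknown, and the floor of 1 RPKM hides any change of the 5 members that never exceeded it.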

Other observations

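Beside the CYP4 clan, 0 genes of the other P450 clans passed the adjusted test in limma. Of the 32 tested CYP3 clan genes, 8 were higher and 2 lower in PQ heads at an unadjusted p under 0.05, with a median log2 fold change of 0.21, beside 2.21% higher and 1.67% lower among all tested genes and their median of -0.02. Of the 8 tested mitochondrial P450 genes, 1 was higher and 0 lower, with a median of 0.13, and of the 5 tested CYP2 clan genes 0 were higher or lower, with a median of 0.03. In the CYP4 clan these counts were 7 and 0 of 26, with a median of 0.04. Whether the clans differ was not tested.

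Muscle markers summed to between 1042 and 1665 RPKM in PQ libraries and between 1176 and 1679 RPKM in sucrose libraries, with the lowest sum of each group in replicate 1. Hemocyte markers summed to between 86.2 and 129 RPKM in PQ libraries and between 83.8 and 114 RPKM in sucrose libraries. Of the 8, 1 (He) was higher in PQ heads at an unadjusted p under 0.05 in limma, as were 2.21% of all tested genes. He lay near the floor, at 1.21, 1.55 and 2.14 RPKM in the PQ libraries against 1.17, 1 and 1 RPKM in the sucrose libraries. Its adjusted p from limma was 0.951. Gut markers summed to between 25.2 and 30.4 RPKM in PQ libraries and between 23.9 and 69.5 RPKM in sucrose libraries. The highest sum, in sucrose replicate 2, came mostly from Amy-p, which had 53.3 RPKM there against 11.8 and 8.81 RPKM in sucrose replicates 1 and 3. Of the 8 gut markers, 4 were at the floor in all libraries. Neuronal markers summed to between 1272 and 1438 RPKM in PQ libraries and between 1213 and 1412 RPKM in sucrose libraries. The part of these cell types in the differences of the CYP4 clan was not tested.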
